A study of Mus musculus with 36 samples.

Results

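The transcripts of 10 macrophage cytokine genes were followed in RAW264.7 cells, a mouse macrophage line: Tnf, Il6, Il1a, Il1b, Il1rn, Il18, Il23a, Il27, Il12b and Il10. They were taken by name from the 49568 genes listed in each of 2 tables of read counts, whatever their level. The choice was made with earlier results of these data known, so counts of called members are description and not an independent test. The study asked whether short human HLA-DRβ peptides direct macrophage polarization. One table held the IFNγ series and the other the Il-4 series, with 18 libraries each. In the IFNγ series the groups were PBS, the 15-mer 65–79*SE (the shared epitope, from an allele linked to arthritis risk) with IFNγ, and the 15-mer 65–79*PE (the protective epitope) with IFNγ. In the Il-4 series the groups were PBS, 65–79*SE with Il-4 and 65–79*PE with Il-4. Peptides were used at 100 µg/ml and cytokines at 5 ng/ml, with fresh medium at 48 h and RNA taken at 72 h. Every group had 6 libraries. Replicates 1–3 and 4–6 were named by different schemes on the labels, the study spoke of more than 1 experiment, and the sets of 3 are shown apart throughout. Neither the labels nor the methods settle if the PBS cells were given the cytokine. RAW264.7 is a virus-transformed line kept in culture, so its cytokine levels are those of 1 line.

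TNF and IL-6 are secreted inflammatory mediators made by activated macrophages, largely under NF-κB. The IL-1 family holds the agonists IL-1α and IL-1β, the receptor antagonist encoded by Il1rn, which occupies the IL-1 receptor without signalling, and IL-18, which is made as a precursor and cut by caspase-1. The IL-12 family is built of paired chains: Il12b encodes p40, Il23a the p19 chain that joins p40 to form IL-23, and Il27 the p28 chain that joins EBI3 to form IL-27. IL-10 restrains the production of the others. IFNγ is known to prime macrophages for inflammatory cytokine production, and Il-4 to turn them towards repair.

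Stretches before the transcription start were taken from RefSeq on GRCm38.p6 for members on which the results below turn. Of the 10 genes, 7 had a window there of 250 bases before and 50 after the start. The 250 bases before the start of Il6 (chr5:30012864-30013113, plus strand), Tnf (chr17:35202008-35202257, minus strand) and Il1b (chr2:129371140-129371389, minus strand) are shown because these genes encode inflammatory agonists that were called below. The 30 bases of Il1rn (chr2:24345310-24345339, plus strand) are shown around a motif match. This gene was chosen because it was called lower than PBS where Il6 and Tnf were called higher. That was with the protective epitope in the first set of IFNγ replicates. With the shared epitope in that set, Il1rn was called higher, as the agonists were. Capitals mark matches on either strand to an NF-κB-like motif (GGG, 2 bases of any kind, then TTTCC), an AP-1-like motif (TGANTCA) or a TATA box (TATAAA).
Il6: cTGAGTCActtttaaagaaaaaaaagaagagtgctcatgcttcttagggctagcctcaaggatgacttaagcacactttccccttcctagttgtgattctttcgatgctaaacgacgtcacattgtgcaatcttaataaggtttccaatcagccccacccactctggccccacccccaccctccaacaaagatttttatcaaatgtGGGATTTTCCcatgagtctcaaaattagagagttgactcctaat
Tnf: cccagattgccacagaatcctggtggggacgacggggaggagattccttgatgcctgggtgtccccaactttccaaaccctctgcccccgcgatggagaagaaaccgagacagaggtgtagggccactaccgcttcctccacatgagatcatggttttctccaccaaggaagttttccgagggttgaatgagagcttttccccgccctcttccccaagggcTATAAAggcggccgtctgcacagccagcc
Il1b: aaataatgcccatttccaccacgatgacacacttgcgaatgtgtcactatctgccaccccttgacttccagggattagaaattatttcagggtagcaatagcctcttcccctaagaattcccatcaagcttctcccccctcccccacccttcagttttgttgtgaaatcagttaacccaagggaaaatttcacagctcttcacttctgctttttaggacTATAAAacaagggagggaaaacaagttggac
Il1rn: ggaaatatgaGGGTTTTTCCgcttctgaca
The NF-κB-like letters stood at bases -44 to -35 of Il6 and at -51 to -42 from the start used here for Il1rn, where 1.63% of the 32851 RefSeq windows of the same length held them. Other annotated Il1rn starts lie upstream of that match. From the nearer of these the match lies at bases 30 to 39, after the start. The window of the farther one held no NF-κB-like match. An AP-1-like match lay at the far end of the Il6 stretch, and 7.81% of all windows had one. TATA boxes lay at -29 to -24 of Tnf and -31 to -26 of Il1b, against 13.6% of all windows. Such matches describe the letters of these windows and not a bound factor.

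Library totals ranged from 20.7 M to 63.2 M counts (IFNγ) and from 17.05 M to 30.6 M counts (Il-4). Levels are given in CPM, the count scaled to a common library size (counts per M), taken over the genes kept after a filter on low counts and scaled by TMM, a method that balances library composition. The floor, which is the 3 counts that a count of 0 still allows with 95% confidence, corresponded to 0.0541 to 0.166 CPM (IFNγ) and 0.0950 to 0.172 CPM (Il-4), covering counting error alone. In the IFNγ series histone genes summed to 63.8 to 164 CPM in replicates 1–3 and to 2596 to 7172 CPM in replicates 4–6, and in the Il-4 series to 54.3 to 140 CPM and 3426 to 14523 CPM. Counts of the noncoding RNA Rn7s1 were at most 0.000791% of the total in IFNγ replicates 1–3 and 5.59 to 7.54% in replicates 4–6. Protein-coding genes held 85.2 to 85.8% and 62.1 to 69.9% of counts in these sets, and 95.4 to 97.5% and 78.7 to 87.4% in those of the Il-4 series. The sets therefore differed in library content, and the part of these differences in the results was not tested. All 6 macrophage markers were detected in every group, and the 7 markers of other cell types did not pass the filter, with 16 counts as the highest value in 36 libraries. Among the 6 genes that IFNγ is known to induce, 6 were called higher than PBS with either peptide in replicates 1–3 and with 65–79*PE in replicates 4–6. None of the 6 was called in the libraries labelled 65–79*SE, replicates 4–6, where their summed level was 27.6 to 31.7 CPM against 27.9 to 29.9 CPM in PBS and 729 to 894 CPM with 65–79*PE. These 3 libraries therefore go against their IFNγ label, and results that rest on them are named as such. Of 6 genes known to be induced by Il-4, the summed level was 1.64 to 2.27 CPM in PBS of the Il-4 series and 49.0 to 155 CPM with the peptides. A contrast against PBS therefore holds cytokine and peptide together.

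The members differed widely in abundance, and 1 of them was at or under 3 counts throughout. Il12b had at most 2 counts in any of the 36 libraries and was at 0 in 15 of 18 IFNγ libraries and 17 of 18 Il-4 libraries. The highest Il10 count was 12 with IFNγ and 10 with Il-4, and 11 of 18 libraries of each table were at or under 3 counts. Il1b, Il1a and Il6 were at or under 3 counts in 13, 10 and 8 of the 18 Il-4 libraries. The filter kept 8 of the 10 genes in the IFNγ series (all but Il10 and Il12b) and 5 in the Il-4 series (Tnf, Il1rn, Il18, Il23a and Il27). Il12a, the p35 chain of IL-12, was at 0 counts in all libraries of both tables, so neither chain of IL-12 was found above the floor.

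**Figure D1:**
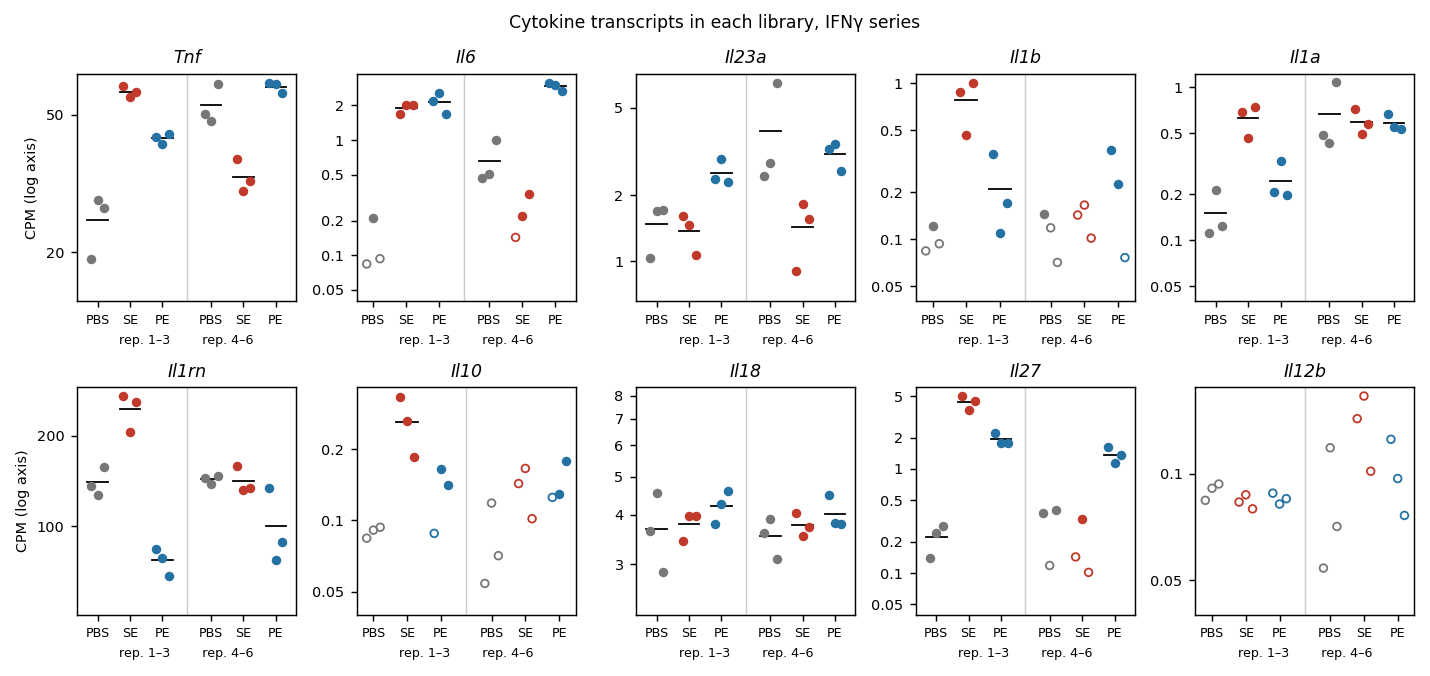
Each panel shows 1 cytokine gene of the IFNγ series. The y axis is CPM on a log axis and the x axis the group, with replicates 1–3 left and 4–6 right of the grey line. Filled points are libraries and open points libraries with 3 counts or fewer, drawn at the level that 3 counts give. Black bars are means of 3 libraries, drawn where all 3 had more than 3 counts. Il27 with 65–79*SE in replicates 1–3 lies at 3.72 to 4.99 CPM, above every other group.

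Levels were compared between genes per kilobase of exon (CPM per kb). In PBS replicates 1–3 of the IFNγ series Il1rn was highest at 25.3 ± 2.87 CPM per kb (SD, n = 3), followed by Tnf at 15.1 ± 2.99, Il18 at 3.57 ± 0.815, Il23a at 0.660 ± 0.172 and Il27 at 0.216 ± 0.0711. Il1a, Il6 and Il1b were each under 0.1 CPM per kb, and their libraries overlapped. With 65–79*SE in the same replicates Il1rn led at 44.4 ± 6.16 and Tnf followed at 35.6 ± 1.38 CPM per kb. Il27 came next at 4.30 ± 0.624, overlapping Il18 at 3.68 ± 0.304. With 65–79*PE the order at the top was turned, and Tnf at 26.1 ± 0.847 lay above Il1rn at 13.9 ± 1.48 in every library. The same order held in PBS replicates 4–6, with Tnf at 32.5 ± 4.34 and Il1rn at 25.97 ± 0.813 CPM per kb. The exon length of Il1rn counts all annotated isoforms, which lowers its value per kb. The antagonist stood far above the agonists: per kb, Il1rn was 134 to 358 times the sum of Il1a and Il1b in PBS replicates 1–3, 51.9 to 77.9 times with 65–79*SE and 52.9 to 65.1 times with 65–79*PE. In replicates 4–6 it was 45.3 to 114 times in PBS and 35.4 to 54.2 times with 65–79*PE, which overlapped. The PBS ratios of replicates 1–3 rest on 1 to 4 counts of Il1b.

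In replicates 1–3 of the IFNγ series, Il6, Il27 and Tnf were higher with IFNγ and either peptide than in PBS. Il1rn was the member on which the peptides parted: higher than PBS with 65–79*SE and lower with 65–79*PE. Each contrast against PBS holds cytokine and peptide together. Calls required a fold change over 1.5 together with an adjusted p under 0.05, from edgeR's quasi-likelihood test with Benjamini-Hochberg adjustment across all genes. With 65–79*SE, 6 of 8 members were called against PBS, all higher (Il27, Il6, Il1b, Il1a, Tnf and Il1rn), where 21.2% of all 16845 genes tested were called. Il1b passed the low count filter through the 65–79*SE libraries of these replicates, the group in which it was high, so its calls here and between the peptides add no support to the counts. With 65–79*PE, 4 of 8 were called, 3 higher (Il6, Il27 and Tnf) and Il1rn lower, against 18.5% of all genes. Between the peptides, 4 of 8 were called, all higher with 65–79*SE (Il1b, Il1rn, Il1a and Il27), against 5.33% of all genes. The median log2 fold change of the tested members was 1.65, 0.79 and 0.81 in these contrasts, while the medians of all genes were -0.04, -0.04 and 0.00. Both contrasts against PBS use the same 3 PBS libraries. With the 3 doubted libraries left out of the fit, the counts stayed at 6, 4 and 4. With replicates 1–6 pooled, which mixes in those libraries, 1 member was called for 65–79*SE against PBS (Il27), 3 for 65–79*PE against PBS and 2 for the peptides. The share of all genes called is not given for these alternative fits, so their counts are not read as a result about the members.

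The IFNγ contrasts of replicates 4–6 took another form. With 65–79*PE, 2 of 8 members were called against PBS, both higher (Il6 and Il27), against 11.2% of all genes. The libraries labelled 65–79*SE had 3 of 8 called against PBS, all lower (Il6, Il23a and Tnf), against 2.04% of all genes. They had 4 of 8 called against 65–79*PE, all lower (Il6, Il27, Il23a and Tnf), against 13.9% of all genes. Both of the last contrasts rest on the libraries that lack the IFNγ response, and the share of peptide, cytokine and label in them cannot be told apart. The difference between the sets passed an adjusted p of 0.05 for 7 of 8 members in 65–79*SE against PBS (35.7% of all genes), for 5 of 8 between the peptides (28.8%) and for 2 of 8 in 65–79*PE against PBS (11.5%). The last of these does not use the doubted libraries. The counts of 7 and 5 include Il1b. It passed the low count filter through the 65–79*SE libraries in which it was high, so it adds no support to those counts.

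**Figure D2:**
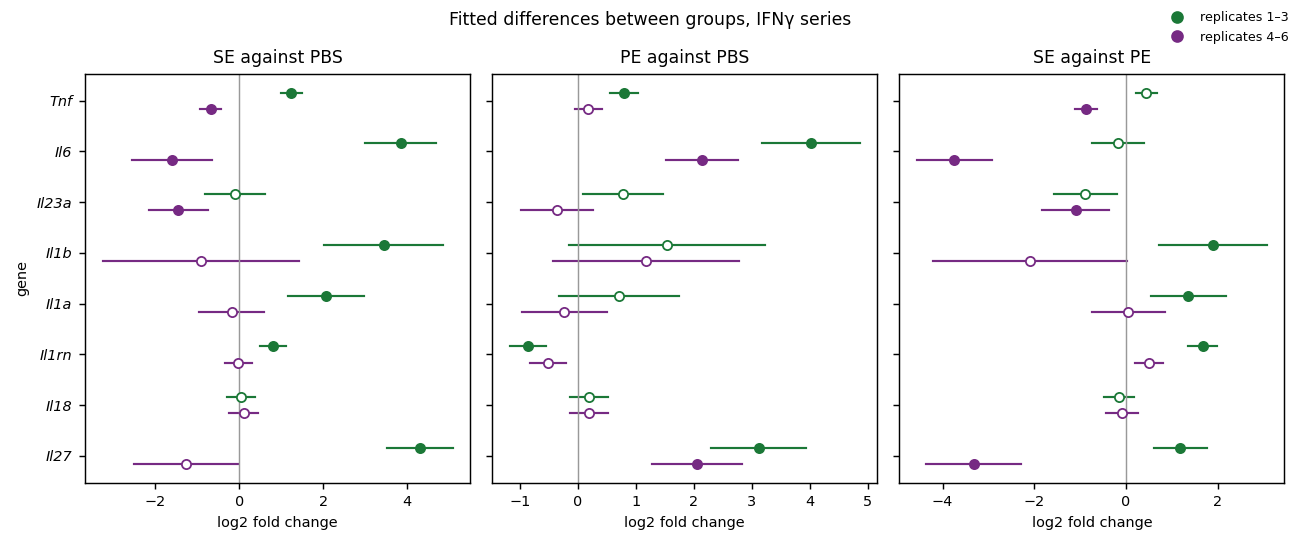
Fitted log2 fold changes (x axis) of the 8 members tested in the IFNγ series (y axis) for the 3 contrasts. Points are estimates and lines 95% intervals, green for replicates 1–3 and purple for replicates 4–6, filled where called. Il6 and Tnf lie right of 0 for 65–79*SE against PBS in replicates 1–3 and left of 0 in replicates 4–6, where the libraries labelled 65–79*SE lack the IFNγ response.

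Tnf (chromosome 17, 35199381 to 35202007, minus strand; positions of genes here and below are from GENCODE M21 on GRCm38) encodes TNF, the early inflammatory mediator. It stood at 19.1, 28.2 and 26.8 CPM in PBS replicates 1–3, at 60.7, 56.1 and 58.1 CPM with 65–79*SE and at 43.2, 41.3 and 44.0 CPM with 65–79*PE. The 3 groups did not overlap. The log2 fold change against PBS was 1.24 ± 0.12 (standard error, as for all fitted values below; adjusted p = 3.99e-08) with 65–79*SE and 0.79 ± 0.12 (adjusted p = 1.65e-05) with 65–79*PE. Between the peptides it was 0.45 ± 0.11 (adjusted p = 0.00879), under the fold required for a call. In PBS replicates 4–6 Tnf was already at 50.4, 47.9 and 61.3 CPM, and with 65–79*PE at 61.9, 61.5 and 57.8 CPM, so these groups overlapped (log2 fold change 0.18, adjusted p = 0.273). The difference of 65–79*PE against PBS between the sets was 0.61 (adjusted p = 0.0191), and it was lost without PBS replicate 6 (0.50) or 65–79*PE replicate 3 (0.59). The libraries labelled 65–79*SE, replicates 4–6, had 37.1, 30.1 and 32.1 CPM, below all PBS libraries of their set. Their fold change against PBS was -0.69 ± 0.12 (adjusted p = 0.00289), and without PBS replicate 6 it was -0.57, under the fold required. Against 65–79*PE it was -0.87 ± 0.12 (adjusted p = 8.78e-06).

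Il6 (chromosome 5, 30013114 to 30019981, plus strand), the agonist with the NF-κB-like match shown above, was near the floor in PBS. PBS replicates 1–3 had 3, 7 and 3 counts, or 0.0841, 0.212 and 0.0935 CPM. With 65–79*SE there were 61, 69 and 76 counts (1.69, 2.00 and 2.01 CPM), and with 65–79*PE 74, 94 and 60 counts (2.17, 2.57 and 1.70 CPM). Every peptide library was above every PBS library, while the peptide groups overlapped. The fold was 14.4 (95% interval 7.97 to 25.8) with 65–79*SE and 16.2 (9.05 to 29.01) with 65–79*PE, with adjusted p = 2.11e-07 and 1.49e-07. Between the peptides the log2 difference was -0.17 with a 95% interval of -0.74 to 0.39 (adjusted p = 0.72), an interval that leaves room for differences in either direction. PBS replicates 4–6 had 26, 13 and 42 counts (0.469, 0.513 and 0.993 CPM) and 65–79*PE 75, 94 and 105 counts (3.12, 3.03 and 2.67 CPM), again with no overlap. The fold was 4.41 (95% interval 2.86 to 6.81, adjusted p = 1.82e-05).

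The libraries labelled 65–79*SE, replicates 4–6, had 1, 4 and 10 Il6 counts (0.0477, 0.221 and 0.339 CPM), below all PBS and all 65–79*PE libraries of their set. Against PBS the log2 fold change was -1.60 ± 0.45 (adjusted p = 0.0489), and the call did not hold without PBS replicate 6 (-1.16), 65–79*SE replicate 4 (-1.17) or 65–79*SE replicate 5 (-1.61), with RLE size factors (adjusted p = 0.0515) or in a fit of replicates 4–6 alone (adjusted p = 0.123). Against 65–79*PE it was -3.74 ± 0.39 (adjusted p = 3.82e-07). The rise of Il6 with 65–79*PE was larger in replicates 1–3 than in 4–6 by 1.88 ± 0.54 on the log2 scale (adjusted p = 0.03). That difference was lost without PBS replicate 1 (1.63), 3 (1.70) or 6 (1.43), or 65–79*PE replicate 1 (1.87), 2 (1.72) or 6 (1.88).

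Among the IL-1 family, the agonist genes were called higher with 65–79*SE and were scarce. Il1b (chromosome 2, 129364570 to 129371139, minus strand) had 2, 4 and 1 counts in PBS replicates 1–3, 32, 16 and 38 with 65–79*SE and 12, 4 and 6 with 65–79*PE. The 65–79*SE libraries, at 0.465 to 1.01 CPM, lay above all PBS and 65–79*PE libraries. Its log2 fold change was 3.44 ± 0.68 against PBS (adjusted p = 0.000347) and 1.90 ± 0.56 against 65–79*PE (adjusted p = 0.0228). The latter call was lost without 65–79*SE replicate 1 (1.81) or 3 (1.68) or 65–79*PE replicate 2 (1.59) or 3 (1.77). With 65–79*PE the change against PBS was 1.54 with a 95% interval of -0.16 to 3.23 (adjusted p = 0.142). All groups of replicates 4–6 had 9 counts or fewer, and none of the 3 contrasts was called. For 65–79*SE against 65–79*PE in replicates 4–6 leaving out 65–79*PE replicate 6 made a call (-2.65, adjusted p = 0.0452). The difference between the sets was 4.36 for 65–79*SE against PBS (adjusted p = 0.0132), lost without PBS replicate 4 (3.42), and 3.99 between the peptides (adjusted p = 0.012), lost without 65–79*PE replicate 4 (3.40). The antisense gene Il1bos overlaps Il1b, and since the strand setting of the counting was not stated their reads may not be separated.

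Il1a (chromosome 2, 129299610 to 129309972, minus strand), the second agonist, had 4, 7 and 4 counts in PBS replicates 1–3, 25, 16 and 28 with 65–79*SE and 7, 12 and 7 with 65–79*PE. The 65–79*SE libraries were again above both other groups. Its log2 fold change was 2.06 ± 0.43 against PBS (adjusted p = 0.000621) and 1.36 ± 0.39 against 65–79*PE (adjusted p = 0.0206). The call between the peptides was lost without 65–79*SE replicate 1 (1.29) or 3 (1.23) or 65–79*PE replicate 1 (1.25) or 3 (1.23). The 3 groups of replicates 4–6 overlapped at 0.434 to 1.09 CPM in PBS, 0.497 to 0.715 CPM in the libraries labelled 65–79*SE and 0.533 to 0.667 CPM with 65–79*PE. The antisense gene Gm14023 overlaps Il1a.

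Il1rn (chromosome 2, 24336853 to 24351494, plus strand), the antagonist gene, was the most abundant member in CPM. It stood at 136, 127 and 158 CPM in PBS replicates 1–3, at 270, 207 and 260 CPM with 65–79*SE and at 84.5, 78.5 and 68.3 CPM with 65–79*PE. The groups lay in this order with no overlap, 65–79*SE above PBS and 65–79*PE below it. Its log2 fold change against PBS was 0.81 ± 0.15 (adjusted p = 0.000167) with 65–79*SE and -0.86 ± 0.15 (adjusted p = 0.000116) with 65–79*PE. Between the peptides the fold was 3.18 (adjusted p = 6.25e-07). PBS replicates 4–6 had 145, 139 and 148 CPM and 65–79*PE 134, 77.6 and 89.1 CPM. All 65–79*PE libraries were below PBS, with a log2 fold change of -0.52 ± 0.15 (adjusted p = 0.0132) that was under the fold required, and without 65–79*PE replicate 4 it was -0.79 and called. The libraries labelled 65–79*SE, replicates 4–6, at 159, 132 and 134 CPM, overlapped PBS (-0.02, adjusted p = 0.967). Against 65–79*PE they were 0.50 ± 0.15 higher (adjusted p = 0.0148), under the fold required, and 0.76 without 65–79*PE replicate 4, which was called.

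Il18 (chromosome 9, 50554827 to 50581840, plus strand), the gene of the caspase-1 substrate, varied little in the IFNγ series. Its 18 libraries lay between 2.87 and 4.59 CPM. None of the 3 contrasts in either set was called, with log2 fold changes from -0.15 to 0.19. The 95% interval was -0.29 to 0.37 for 65–79*SE and -0.14 to 0.52 for 65–79*PE against PBS in replicates 1–3. Bco2 and Tex12 lie opposite Il18, so part of its reads may be theirs.

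In the IL-12 family Il27 (chromosome 7, 126589010 to 126594941, minus strand), the p28 chain, had the highest fold of 65–79*SE against PBS among the members. PBS replicates 1–3 had 5, 8 and 9 counts (0.140, 0.242 and 0.280 CPM). With 65–79*SE there were 180, 128 and 168 counts (4.99, 3.72 and 4.45 CPM), and with 65–79*PE 76, 65 and 63 counts (2.23, 1.78 and 1.78 CPM). The groups did not overlap, and 65–79*SE was the higher of the peptides. The fold was 19.7 (95% interval 11.5 to 33.8, adjusted p = 1.4e-08) with 65–79*SE, 8.68 (4.93 to 15.3, adjusted p = 2.72e-06) with 65–79*PE and 2.27 (1.52 to 3.40, adjusted p = 0.00511) between them. PBS replicates 4–6 had 21, 3 and 17 counts and 65–79*PE 39, 35 and 53, a fold of 4.14 (adjusted p = 0.000289). The libraries labelled 65–79*SE, replicates 4–6, had 0, 6 and 3 counts, or at most 0.331 CPM, against 1.13 to 1.62 CPM with 65–79*PE. Their log2 difference from 65–79*PE was -3.32 ± 0.50 (adjusted p = 3.08e-05), and from PBS -1.27 (adjusted p = 0.25). Ebi3, the partner chain of IL-27, exceeded it in replicates 1–3: per kb it was 82.2 to 151 times Il27 in PBS, 7.03 to 9.77 times with 65–79*SE and 14.8 to 20.8 times with 65–79*PE. Apobr lies opposite Il27.

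Il23a (chromosome 10, 128296139 to 128298752, minus strand), the p19 chain, was the member that leaned to 65–79*PE in replicates 1–3. It stood at 1.04, 1.70 and 1.71 CPM in PBS, 1.61, 1.45 and 1.06 CPM with 65–79*SE and 2.38, 2.93 and 2.29 CPM with 65–79*PE. All 65–79*PE libraries were above both other groups, which overlapped each other. The log2 fold change of 65–79*PE against PBS was 0.78 ± 0.33 (adjusted p = 0.064) and that of 65–79*SE against 65–79*PE was -0.89 ± 0.33 (adjusted p = 0.0676), and neither was called. DESeq2 called both (adjusted p = 0.0401 and 0.0341). So did the fit of replicates 1–3 alone, with adjusted p = 0.00987 and 0.012. In PBS replicates 4–6 the level was 2.45, 2.80 and 6.45 CPM, with replicate 6 far above the others. The libraries labelled 65–79*SE of that set had 0.905, 1.82 and 1.56 CPM, below PBS and below 65–79*PE at 3.25, 3.42 and 2.56 CPM.

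For Il23a in the libraries labelled 65–79*SE, replicates 4–6, the log2 fold change was -1.46 ± 0.34 against PBS (adjusted p = 0.0177) and -1.10 ± 0.35 against 65–79*PE (adjusted p = 0.019). The first call was lost without PBS replicate 6 (-0.87), 65–79*SE replicate 4 (-1.23) or 6 (-1.54), or in a fit of the set alone (adjusted p = 0.0774). The second was lost without 65–79*SE replicate 4 (-0.87) or 65–79*PE replicate 5 (-1.01). The difference between the sets in 65–79*SE against PBS, 1.35 (adjusted p = 0.0349), was lost without PBS replicate 1 (1.14) or 6 (0.76), or 65–79*SE replicate 1 (1.22), 2 (1.31), 4 (1.12) or 6 (1.44). That of 65–79*PE against PBS, 1.13 (adjusted p = 0.105), was called without PBS replicate 4 (1.40, adjusted p = 0.0376).

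Il10 (chromosome 1, 131019845 to 131024974, plus strand) was not tested. With IFNγ, replicates 1–3 had 0, 0 and 2 counts in PBS, 12, 9 and 7 with 65–79*SE and 2, 6 and 5 with 65–79*PE. The 65–79*SE libraries, at 0.186 to 0.332 CPM, lay above the other groups of that set. PBS of replicates 4–6 had 1, 1 and 2 counts, the libraries labelled 65–79*SE 1, 0 and 0 and 65–79*PE 2, 4 and 7. No fold is given because PBS was at or under the floor. Il12b (chromosome 11, 44400063 to 44414033, plus strand) had 2, 0 and 0 counts in PBS replicates 1–3, 0, 0 and 1 with either peptide, and 0 in all of replicates 4–6.

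In the Il-4 series Tnf was the one member called of the 5 tested in the fit without the replicate number as a block. The counts here are from that fit. With the block, Il1rn and Il23a were also called in contrasts given below. Among these is Il1rn with 65–79*PE in replicates 4–6, where the number was taken to pair libraries. With 65–79*SE, 1 of 5 members was called against PBS in replicates 1–3 (Tnf, lower; 6.17% of all 14183 genes tested) and 0 of 5 in replicates 4–6 (2.21% of all genes). With 65–79*PE, 1 of 5 was called in replicates 1–3 (3.48% of all genes) and 1 of 5 in replicates 4–6 (3.58%), Tnf lower in both. Between the peptides 0 of 5 were called in either set, as for 0% of all genes in each. The edgeR test gave 1 member at an unadjusted p under 0.05 for 65–79*SE against PBS in replicates 4–6, and 0 and 2 for the peptides in replicates 1–3 and 4–6. DESeq2 called 0 members in these 3. The difference between the sets was called for 0 of 5 members in 65–79*SE against PBS (4.39% of all genes), in 65–79*PE against PBS (0.00705%) and between the peptides (0%). There, edgeR gave 1, 0 and 0 members at an unadjusted p under 0.05, and DESeq2 called 0, 0 and 0.

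**Figure D3:**
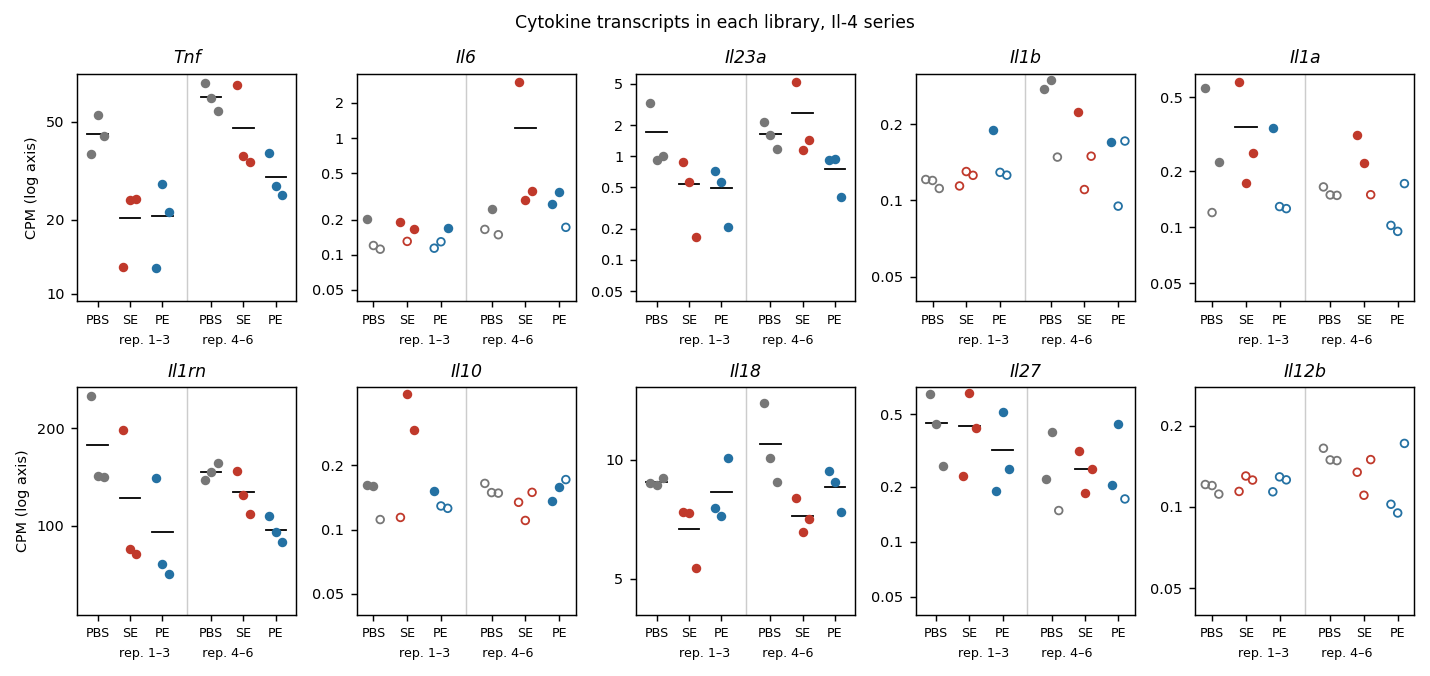
Each panel shows 1 cytokine gene of the Il-4 series, with CPM on a log y axis and the groups on the x axis, replicates 1–3 left and 4–6 right of the grey line. Filled points are libraries, open points libraries with 3 counts or fewer drawn at the level of 3 counts, and black bars means of 3 libraries that all had more. In 65–79*SE replicate 4, Il6 lies at 3.00 CPM and every other library of the series is at or under 0.349 CPM.

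Tnf in the Il-4 series stood at 36.9, 53.4 and 43.9 CPM in PBS replicates 1–3, at 12.9, 23.98 and 24.3 CPM with 65–79*SE and at 12.7, 27.9 and 21.6 CPM with 65–79*PE. Both peptide groups were below all PBS libraries. The log2 fold change was -1.13 ± 0.30 (adjusted p = 0.0197) with 65–79*SE and -1.11 ± 0.30 (adjusted p = 0.0357) with 65–79*PE, against the same 3 PBS libraries. Tnf of replicates 4–6 was at 71.8, 62.6 and 55.3 CPM in PBS, 37.2, 27.4 and 25.3 CPM with 65–79*PE and 70.4, 36.3 and 34.4 CPM with 65–79*SE. With 65–79*PE all libraries were below PBS (-1.07 ± 0.30, adjusted p = 0.0427). With 65–79*SE replicate 4 overlapped PBS (-0.43, adjusted p = 0.427), and without it the value was -0.82 (adjusted p = 0.218). The call with 65–79*SE in replicates 1–3 was lost without PBS replicate 2 (-0.99) or 3 (-1.15) or 65–79*SE replicate 1 (-0.89) or 2 (-1.26). That with 65–79*PE in replicates 1–3 was lost without PBS replicate 2 (-0.96) or 3 (-1.13) or 65–79*PE replicate 1 (-0.85) or 3 (-1.14). That with 65–79*PE in replicates 4–6 was lost without any of its 6 libraries: -0.97, -1.08 and -1.16 without PBS replicate 4, 5 and 6, and -1.25, -1.01 and -0.95 without 65–79*PE replicate 4, 5 and 6.

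Il1rn in the Il-4 series had 251, 142 and 141 CPM in PBS replicates 1–3, 198, 85.0 and 82.2 CPM with 65–79*SE and 141, 76.1 and 71.0 CPM with 65–79*PE. Replicate 1 was the highest library in each of the 3 groups. The log2 fold change was -0.55 (adjusted p = 0.248) with 65–79*SE and -0.89 (adjusted p = 0.0859) with 65–79*PE, and neither was called. Without 65–79*SE replicate 1 the first was -1.09 (adjusted p = 0.00987), and without 65–79*PE replicate 1 the second was -1.27 (adjusted p = 0.0372), both called. DESeq2 called the second as well (adjusted p = 0.0432). With the replicate number as a block both were called, at -0.62 (adjusted p = 0.00183) and -0.91 (adjusted p = 0.000175). In replicates 4–6 PBS had 138, 147 and 156 CPM, 65–79*SE 148, 124 and 109 CPM and 65–79*PE 108, 95.5 and 88.9 CPM, with all 65–79*PE libraries below PBS. For 65–79*PE there the log2 fold change was -0.60 (adjusted p = 0.29). In that contrast same-numbered libraries deviated together, and with the replicate number as a block the value was -0.60 and called (adjusted p = 0.00197), which made 2 members called with the block.

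Il23a in the Il-4 series had 3.27, 0.920 and 1.00 CPM in PBS replicates 1–3, 0.875, 0.564 and 0.168 CPM with 65–79*SE and 0.720, 0.560 and 0.210 CPM with 65–79*PE. Both peptide groups were below PBS in every library, with log2 fold changes of -1.66 (adjusted p = 0.104) and -1.77 (adjusted p = 0.117), not called. With the replicate number as a block both were called, at -1.67 (adjusted p = 0.0147) and -1.75 (adjusted p = 0.0179). Replicates 4–6 stood at 2.14, 1.59 and 1.19 CPM in PBS and 0.921, 0.950 and 0.401 CPM with 65–79*PE. The level with 65–79*SE was 5.24 CPM in replicate 4 and 1.14 and 1.45 CPM in replicates 5 and 6. Between the peptides the log2 difference was 1.71 (adjusted p = 0.413), and 0.70 without 65–79*SE replicate 4.

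Il18 was 8.64 to 8.96 CPM in PBS replicates 1–3 of the Il-4 series, 5.32 to 7.38 CPM with 65–79*SE and 7.19 to 10.1 CPM with 65–79*PE. In replicates 4–6 it was 8.75 to 13.9, 6.55 to 8.02 and 7.38 to 9.38 CPM. The 65–79*SE libraries were below PBS in both sets, at log2 fold changes of -0.39 (adjusted p = 0.17) and -0.60 (adjusted p = 0.0825), and neither was called. Il27 had 3 to 16 counts in all 18 libraries, and its groups overlapped in every contrast. The highest counts of the members that were not tested were 67 for Il6, 16 for Il1a, 10 for Il10, 6 for Il1b and 2 for Il12b. Of these, Il6 at 67 and Il12b at 2 were in 65–79*SE replicate 4, which also held the highest Il23a count of the series (117). The other 17 libraries had at most 11 Il6 counts. Whether that library differed in treatment, handling or stimulation was not tested.

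**Figure D4:**
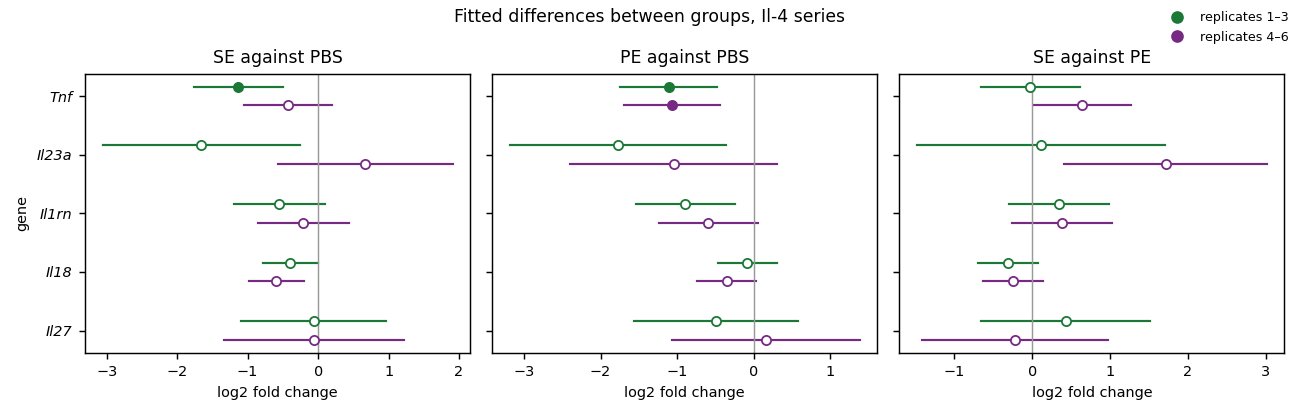
Fitted log2 fold changes (x axis) of the 5 members tested in the Il-4 series (y axis) for the 3 contrasts, with 95% intervals, green for replicates 1–3 and purple for replicates 4–6, filled where called. The fit does not use the replicate number as a block. Tnf is called against PBS with 65–79*SE in replicates 1–3 (-1.13) and with 65–79*PE in both sets (-1.11 and -1.07), and no member is called between the peptides.

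The contrast of 65–79*SE with 65–79*PE was compared between the series in 1 model of the 24 peptide libraries, since the tables were counted separately and their levels were not compared. In replicates 1–3 the contrast differed for 0 of 8 members (3.46% of 16860 genes), with 1 at an unadjusted p under 0.05 in edgeR and 1 called by DESeq2. That member was Il1rn, whose contrast was 1.32 ± 0.38 higher on the log2 scale with IFNγ than with Il-4 (adjusted p = 0.0554). With the replicate number as a block, which pairs the Il-4 libraries compared here, it was 1.36 and called (adjusted p = 3.44e-05). It also passed with RLE size factors (adjusted p = 0.0472) and with DESeq2 (adjusted p = 0.0434), and without 65–79*SE with Il-4 replicate 1 (1.86) or 65–79*PE with Il-4 replicate 3 (1.50). In replicates 4–6 it differed for 4 of 8 members (19.2% of genes), all lower with IFNγ: Il6 by -6.06, Il27 by -3.07, Il23a by -2.80 and Tnf by -1.51. These rest on the libraries that lack the IFNγ response and on 65–79*SE with Il-4 replicate 4, without which they were -4.12, -2.85, -1.75 and -1.07 and still called.

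Genes around these cytokines were counted from lists of their receptors, processing enzymes, related cytokines and feedback factors. These lists too were chosen with earlier results of these data known, and their counts are description. In replicates 1–3 of the IFNγ series 4 of 12 tested receptor genes were called higher and 2 lower with 65–79*SE, and 4 higher and 3 lower with 65–79*PE, where 21.2% and 18.5% of all genes were called. Il18bp, the soluble decoy that binds IL-18, rose from 0.520 ± 0.166 CPM in PBS to 17.5 ± 1.73 CPM with 65–79*SE and 13.2 ± 1.68 CPM with 65–79*PE (SD, n = 3), while Il18 itself was not called. Il12rb1, a receptor chain shared by IL-12 and IL-23, rose from 7.01 ± 0.364 to 24.4 ± 1.21 and 26.4 ± 2.74 CPM. Il6ra, the chain that binds IL-6, fell from 38.8 ± 3.24 to 18.2 ± 2.18 and 18.6 ± 0.802 CPM. Between the peptides 1 receptor gene was called (5.33% of all genes), Tnfrsf1b, a TNF receptor, at 47.4 ± 3.85 CPM with 65–79*SE and 31.2 ± 1.64 CPM with 65–79*PE. In replicates 4–6 with 65–79*PE, 4 receptor genes were called higher and 0 lower (11.2% of all genes), Il18bp (3.05 on the log2 scale), Il12rb1 (1.80) and Il10ra (1.38), the IL-10 receptor chain, among them.

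Of 6 genes tested for cytokine maturation and release, 4 were called higher and 1 lower with either peptide in replicates 1–3 of the IFNγ series (21.2% of all genes with 65–79*SE and 18.5% with 65–79*PE), and 4 higher and 0 lower with 65–79*PE in replicates 4–6 (11.2%). Casp1, which cuts the precursors of IL-1β and IL-18, rose from 36.2 ± 4.06 CPM in PBS replicates 1–3 to 94.6 ± 6.18 CPM with 65–79*SE and 75.7 ± 2.05 CPM with 65–79*PE. Casp4, the sensor of intracellular endotoxin, rose from 27.3 ± 5.96 to 70.7 ± 2.11 and 63.5 ± 3.77 CPM. Adam17, the protease that sheds TNF from the cell surface, fell from 142 ± 19.7 to 69.8 ± 3.67 and 57.6 ± 5.84 CPM, while Tnf rose. In the Il-4 series Nlrp3, an inflammasome sensor, was called lower with either peptide in replicates 1–3 (28.3 ± 3.53 CPM in PBS, 10.8 ± 2.53 and 10.4 ± 1.00) and with 65–79*PE in replicates 4–6.

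Of 8 feedback genes, 6 were called higher and 0 lower with 65–79*SE in replicates 1–3 of the IFNγ series (21.2% of all genes), and 4 higher and 2 lower with 65–79*PE (18.5%). Between the peptides 4 of 8 were higher with 65–79*SE and 0 lower (5.33% of all genes), with a median log2 fold change of 0.74 beside 0.00 for all genes. Dusp1, a phosphatase that turns off MAP kinases, stood at 5.76 ± 1.12 CPM in PBS, 50.4 ± 5.27 CPM with 65–79*SE and 14.7 ± 0.675 CPM with 65–79*PE. Nfkbiz, a nuclear IκB protein needed for Il6 transcription, stood at 4.17 ± 0.605, 19.6 ± 2.87 and 9.90 ± 1.51 CPM. Tnfaip3 (A20), an inhibitor of NF-κB signalling, stood at 15.6 ± 2.55 CPM with 65–79*SE and 6.36 ± 0.929 CPM with 65–79*PE. With 65–79*PE in replicates 4–6, 4 of 8 feedback genes were called higher and 2 lower than PBS (11.2% of all genes). Nfkbiz was called higher there (1.56 on the log2 scale) and Tnfaip3 lower (-0.71). That contrast does not use the doubted libraries. In the libraries labelled 65–79*SE, replicates 4–6, 0 of 8 were higher and 5 were lower than with 65–79*PE (13.9% of all genes), Nfkbiz by -1.96 on the log2 scale. Against PBS in the Il-4 series 1 feedback gene was called higher and 1 lower with either peptide in replicates 1–3 (6.17% and 3.48% of all genes) and with 65–79*PE in replicates 4–6 (3.58%), and 1 higher and 0 lower with 65–79*SE in replicates 4–6 (2.21%). Tnfaip3 was the gene called higher with 65–79*SE in replicates 4–6 (0.90, adjusted p = 0.0437). Its level was 31.1 ± 13.7 CPM against 16.7 ± 4.90 CPM in PBS, and the group includes replicate 4, the library with the high Il6 count. Nfkbiz was called lower in replicates 1–3 with both peptides (-1.11 and -0.93) and in replicates 4–6 with 65–79*PE (-0.72).

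Of 10 other cytokines and partner chains tested in the IFNγ series, 7 were called higher and 0 lower with 65–79*SE in replicates 1–3 (21.2% of all genes), and 5 and 0 with 65–79*PE (18.5%). Csf1, the macrophage growth factor, rose from 4.30 ± 0.655 CPM in PBS to 41.8 ± 3.09 and 36.6 ± 1.64 CPM. Il15, a growth factor of natural killer and memory T cells, rose from 3.05 ± 0.528 to 7.31 ± 0.829 and 5.02 ± 0.0617 CPM. In the Il-4 series Ltb, a membrane-bound member of the TNF family, was called lower in all 4 contrasts against PBS, with log2 fold changes of -1.21 and -1.22 with 65–79*SE and -1.73 and -1.91 with 65–79*PE in replicates 1–3 and 4–6. In bulk RNA, fewer cells that express a gene and less of its RNA per cell cannot be told apart.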

How the data were processed

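The authors prepared stranded mRNA libraries, by their methods, and assigned uniquely aligned reads to genes by featureCounts on GRCm38.p5. The aligner and the strand option are not given in the sources used here. The deposited values are raw whole-number counts, not normalized, in 1 table per series. All columns were mapped by label. Of 49568 names, 47287 were in GENCODE M21, which gave positions and exon lengths, and 26 had been turned into dates.

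Counts were tested in R 4.3.3 with edgeR 4.0.16 (glmQLFit, glmQLFTest, TMM, filterByExpr) in 1 model per table of 18 libraries with a term for each group within each set of replicates, which kept 16845 and 14183 genes. Adjusted p-values (Benjamini-Hochberg) cover all genes tested. The code was tested on simulated data. Alternatives used other filters, DESeq2 1.42.0, RLE size factors, protein-coding genes without histone genes, a replicate block, a set alone, pooled sets and leaving out each library. The fit without 65–79*SE with IFNγ replicates 4–6 was chosen after seeing the data. The replicate number was taken to pair libraries where all 3 correlations of same-numbered deviations exceeded 0.1. This held for 65–79*SE against 65–79*PE in replicates 1–3 (0.389, 0.143 and 0.145) and 65–79*PE against PBS in replicates 4–6 (0.356, 0.190 and 0.395) of the Il-4 series. Replicate pairs differed by more than sampling noise. All members were named. From each other list up to 3 called genes per contrast with the largest change and at least 5 CPM were eligible to be named. The members and lists were chosen with earlier results of these data known.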

Additional observations from a re-analysis of the deposited data

Results flagged for a closer look

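Of 58 groups of 6 libraries, 11 had a highest library whose gap to the next was more than 0.625 of the range. Chance flags about 1 in 20 groups of normally distributed values, which scarce counts are not, and the sets of replicates within a group differed. The Il12b flags were certain beforehand, since only 1 library in each of those groups had any count. In 65–79*SE with Il-4, replicate 4 was highest for Il6 (3.00 CPM, group median 0.242), Il23a (5.24 CPM, median 1.01) and Il12b (0.0896 CPM, 2 counts). In PBS of the Il-4 series, replicate 1 was highest for Il1a (0.565 CPM, 14 counts) and Il1rn (251 CPM, median 145), and replicate 4 for Il18 (13.9 CPM, median 8.86). In the IFNγ series, PBS replicate 6 was highest for Il23a (6.45 CPM, median 2.08) and 65–79*PE replicate 4 for Il1rn (134 CPM, median 81.5). Il12b was flagged for 1 or 2 counts in PBS replicate 1 (0.0560 CPM), 65–79*SE replicate 3 (0.0265 CPM) and 65–79*PE replicate 3 (0.0283 CPM).

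Differences between replicates 1–3 and 4–6 in the IFNγ series are given as the first set minus the second on the log2 scale (edgeR quasi-likelihood test). For 65–79*SE against PBS they were 0.83 for Il1rn (adjusted p = 0.00405), 2.25 for Il1a (0.00412), 4.36 for Il1b (0.0132), 5.44 for Il6 (8.4e-07), 5.57 for Il27 (2.62e-06), 1.35 for Il23a (0.0349) and 1.92 for Tnf (2.24e-08). Between the peptides they were 1.17 for Il1rn (0.000316), 3.99 for Il1b (0.012), 3.57 for Il6 (1.75e-05), 4.51 for Il27 (5.56e-06) and 1.31 for Tnf (4.33e-06). These 12 use the libraries labelled 65–79*SE, replicates 4–6, which lack the IFNγ response. Il1b passed the low count filter through 65–79*SE replicates 1–3, so its values add no support. For 65–79*PE against PBS they were 1.88 for Il6 (0.03) and 0.61 for Tnf (0.0191), and these do not use those libraries. Between the IFNγ and Il-4 series the contrast of the peptides in replicates 4–6 differed by -6.06 for Il6 (8.23e-05), -3.07 for Il27 (0.00909), -2.80 for Il23a (0.00379) and -1.51 for Tnf (0.0039).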

How the results depend on the processing

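Member counts in this section are given without the share of all genes called under each setting. A changed count can therefore reflect a setting that calls more or fewer genes in total. Counts for 65–79*SE with IFNγ in replicates 4–6, the differences between sets and the pooled values that include it rest on the libraries that lack the IFNγ response. A filter of at least 10 counts in every library removed most scarce members from the test. In the IFNγ series it left 2 called for 65–79*SE against PBS and 2 for 65–79*PE against PBS in replicates 1–3, 0 for 65–79*PE against PBS in replicates 4–6, and 1 and 2 between the peptides in replicates 1–3 and 4–6. The differences between sets were then called for 3, 1 and 2 members, and the difference between series for 1 in either set of replicates. With replicates 1–6 pooled, 65–79*SE against PBS gave 1 member called and the peptides 2 in the IFNγ series, and 65–79*SE and 65–79*PE against PBS gave 1 and 2 in the Il-4 series. Pooling turned the direction for 65–79*SE against PBS in replicates 4–6 for Il6 (1.42), Il27 (2.53) and Tnf (0.32), and for Il27 between the peptides (0.032). Its cause was not tested. A fit of replicates 4–6 alone gave 1 member for 65–79*SE against PBS with IFNγ. With no low count filter the Il-4 counts were 2 and 2 for 65–79*SE against PBS, 3 and 2 for 65–79*PE against PBS, 3 between the peptides in replicates 4–6 and 2 for the difference between sets in 65–79*SE against PBS. DESeq2 gave 2 for 65–79*PE against PBS in replicates 1–3 with Il-4 (its adjusted p was missing for 15 values). The difference between series in replicates 1–3 was called for 1 member with RLE size factors, DESeq2, no filter, protein-coding genes without histone genes and the replicate block. That member was Il1rn. In edgeR its value was 1.34 with no filter (adjusted p = 7.94e-13) and 1.33 with RLE size factors (adjusted p = 0.0472). The values were close while the adjusted p was far smaller with no filter, for a reason not tested. Calls made with no filter, also those of the Il-4 series, are therefore not taken as added support.

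With the replicate block, the Il-4 series gave 3 members for 65–79*SE and 3 for 65–79*PE against PBS in replicates 1–3, 2 for 65–79*PE in replicates 4–6 and 2 for the difference between sets in 65–79*SE against PBS. In the IFNγ series the block changed 1 call, that of Il6 in 65–79*SE against PBS in replicates 4–6 (-1.63, adjusted p = 0.0529). Of the contrasts where the number was taken to pair libraries, the block changed the Il1rn call of 65–79*PE against PBS in replicates 4–6 and no call between the peptides. In every other contrast at least 1 of the 3 correlations was 0.1 or lower, so the number was not taken to pair libraries. For 65–79*SE against PBS in replicates 1–3 of the Il-4 series they were 0.264, 0.154 and 0.0988, close to that limit. For 65–79*PE against PBS in those replicates they were 0.191, 0.0814 and 0.0942. The cause of the other changed counts was not tested.

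Leaving out 1 library at a time, the counts for the IFNγ series ran from 6 to 6 (65–79*SE against PBS, replicates 1–3), 0 to 3 (replicates 4–6), 4 to 4 and 2 to 3 (65–79*PE against PBS), 2 to 4 and 3 to 5 (between peptides), and 6 to 7, 0 to 3 and 4 to 5 for the differences between sets. In the Il-4 series they ran from 0 to 1 for both peptides against PBS in replicates 1–3 and were 0 in the other contrasts, and between the series they ran from 0 to 1 and 4 to 4. Depth limits Il12b, Il10, Il1b and, in the Il-4 series, Il6 and Il1a, whose counts lay near 3.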
